A study of Mus musculus with 8 samples.

Results

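Small RNA that sedimented during chromatoid body purification from mouse testis was compared with small RNA of the whole lysate. The chromatoid body is a perinuclear granule of RNA and protein in round spermatids, the haploid stage after meiosis. It holds the helicase MVH (DDX4) and the PIWI protein MIWI, and it is known for its content of PIWI-interacting RNAs (piRNAs). In the adult testis most piRNAs come from the pachytene clusters, long single-copy loci that are transcribed from meiosis onwards. MicroRNAs are shorter, are loaded into Argonaute proteins and pair with messenger RNAs through their seed.

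All rows of the authors' pellet and lysate table were taken that reached 1 FPKM (fragments per kilobase of feature, scaled to the mapped reads of the library) in either column, and all 3005 of 3005 did. The lowest larger value of any row was 2.86 FPKM, so the limit removed nothing. By the prefix of their names the rows fell into 180 piRNA clusters, 363 microRNA genes, 97 genes of small structured RNA (mostly small nucleolar RNA), 1893 other named genes, and 472 transcripts that the authors assembled without annotation.

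The series holds 8 samples, of which 3 enter this comparison and the supernatant is set beside it. These came from C57BL/6 testis of mice at least 6 weeks old, with no allele or treatment named, and all RNA was cut from a gel at 19 to 33 nt. Dissociated tubule cells were fixed with formaldehyde, broken by sonication and spun, which gave the first pellet. That pellet was sonicated again and passed through a filter, and spinning gave the second pellet. The labels tie the authors' single pellet column to both pellet samples, so it is given as the authors' pellet value, and the lysate had 1 library. Nothing below therefore has a replicate check, and no test between pellet and lysate was possible. In bulk material fewer cells of a type and less RNA per cell cannot be told apart. Since FPKM divides the reads of a library among its features, less of one RNA and more of the others cannot be told apart either.

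The marker lists of germ and somatic cells were each listed in part. Of 25 X-linked testis microRNA genes 19 were listed, as were 11 of 29 spermatocyte genes and 1 of 15 spermatogonia markers. Of the somatic microRNA lists, 4 of 5 were listed for blood, 8 of 11 for vessel wall and muscle, and 3 of 5 for gonadal somatic cells. Of the somatic mRNA lists, 1 of 16 Sertoli cell markers, 2 of 8 Leydig cell markers and 0 of 14 blood, vessel and peritubular markers were listed.

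The mature sequences of the microRNAs on which the results turn are given here with the seed, bases 2 to 8 from the 5′ end, in capitals. RefSeq sequences (GRCm38.p6) were matched by symbol for 314 of the 363 microRNA genes. The table gives 1 value per gene and does not tell the arms apart. The let-7 family is shown because its members share a seed and yet differed in their pellet to lysate ratio.
let-7a-5p: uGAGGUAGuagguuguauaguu
let-7b-5p: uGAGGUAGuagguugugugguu
let-7c-5p: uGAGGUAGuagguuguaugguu
let-7d-5p: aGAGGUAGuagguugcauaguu
let-7e-5p: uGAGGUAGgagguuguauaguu
let-7f-5p: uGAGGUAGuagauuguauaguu
let-7g-5p: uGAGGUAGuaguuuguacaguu
let-7i-5p: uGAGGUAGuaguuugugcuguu

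The miR-15/16 family, with another shared seed, is shown for the same reason, and so are miR-34a, miR-34b and miR-449a, which carry the miR-34 seed.
miR-15a-5p: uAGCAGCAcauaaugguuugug
miR-15b-5p: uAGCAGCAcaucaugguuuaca
miR-16-5p: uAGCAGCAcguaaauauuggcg
miR-195a-5p: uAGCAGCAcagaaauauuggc
miR-497a-5p: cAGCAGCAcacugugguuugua
miR-322-5p: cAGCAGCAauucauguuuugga
miR-34a-5p: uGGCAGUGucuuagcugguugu
miR-34b-5p: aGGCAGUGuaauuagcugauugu
miR-449a-5p: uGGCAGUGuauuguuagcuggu

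The last set shows microRNAs whose ratios were above or below most of the class, and no seed is shared within it. miR-205, miR-184 and miR-203 were above the class median, and miR-202, miR-101a and miR-148a were below it. Both arms of miR-202 are printed.
miR-205-5p: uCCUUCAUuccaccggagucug
miR-184-3p: uGGACGGAgaacugauaagggu
miR-203-3p: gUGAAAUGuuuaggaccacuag
miR-202-5p: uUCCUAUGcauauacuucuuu
miR-202-3p: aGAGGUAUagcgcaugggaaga
miR-101a-3p: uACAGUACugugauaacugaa
miR-148a-3p: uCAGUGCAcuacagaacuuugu

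Across the whole table the pellet column lay below the lysate column. The median log2 ratio of (pellet FPKM + 1) to (lysate FPKM + 1) was -2.20, and 2663 of 3005 features had a lower value in the pellet. Ratios are therefore given after subtraction of this median and are called centred. A centred value of 0 marks a feature that kept its place among all features, not one of equal FPKM. By this measure microRNA genes were far below the other classes, with a median of -2.46, and piRNA clusters lay close to the median of the table, at -0.25. Small structured RNA genes had a median of -0.38, assembled transcripts -0.23 and other named genes 0.18.

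The place of the microRNAs was the same under another centre and that of the other classes was not. Without the pseudocount, over the 2586 features above 0 in both columns, the centre was -2.71. The medians were then -1.68 for microRNA genes, 0.25 for piRNA clusters, 0.42 for structured RNA genes, 0.24 for assembled transcripts and -0.01 for other named genes, so that the sign of the last 4 turned. Every feature of high level stands 0.51 higher relative to the centre on that scale.

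**Figure D1:**
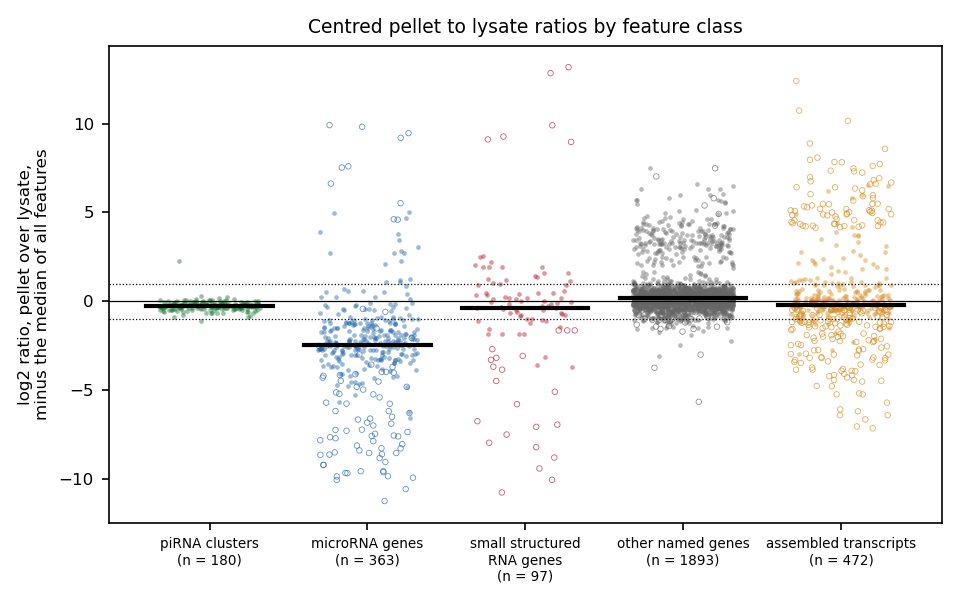
Centred log2 ratio of each feature (vertical axis), by feature class, with horizontal scatter only to separate the points. Filled points were above 0 in both columns, open points were listed at 0 in one of them, black bars are class medians and dotted lines mark 2-fold. The 180 piRNA clusters form a narrow band, microRNA genes centre at -2.46, and other named genes show a second group of points between about 2 and 5. The 147 named genes that were listed through their pellet value alone all lie above the upper dotted line.

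At least 2-fold above the median after centring were 440 features, 14.6% of the table, and at least 2-fold below it were 515, 17.1%. Of the 363 microRNA genes 81.8% were lower and 27 genes higher. Of the 97 structured RNA genes 22 were higher and 36 lower. Among other named genes 263 were higher and 58 lower, 13.9% and 3.06% of that class, and assembled transcripts split into 127 higher and 123 lower. The piRNA clusters gave 1 in each direction.

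The count of higher features depended on how a feature came to be listed. A row with a lysate value under 2.86 FPKM stood in the table through its pellet value alone, and all 253 such rows were among the higher ones. Among the 1467 features at 10 FPKM or more in the lysate, 83 were higher, 5.66%, and 492 were lower, 33.5%. For other named genes in that range the counts were 31 higher and 50 lower of 606.

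The error of a single ratio was taken from the authors' test statistic, as the log2 ratio divided by that statistic. This SE covers counting error. The sources used here do not say whether it also holds spread between the 2 pellet libraries. It was smallest for piRNA clusters, with a median of 0.038 on the log2 scale, and reached 0.57 for microRNA genes, 0.64 for other named genes, 1.31 for structured RNA genes and 1.35 for assembled transcripts. Only 435 features had an SE of at most 0.25. Of these, 38 were past 2-fold on the high side, 8.74%, and 63 on the low side, 14.5%. The piRNA clusters made up 179 of the 435, and the low side held 59 of 65 microRNA genes and no other named gene. Low levels give a large SE. For other named genes from 6.93 to 12.5 FPKM in the lysate its median was 0.65. At such levels the limit favours genes that are high in the pellet, so the counts for named genes depend on it.

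**Figure D2:**
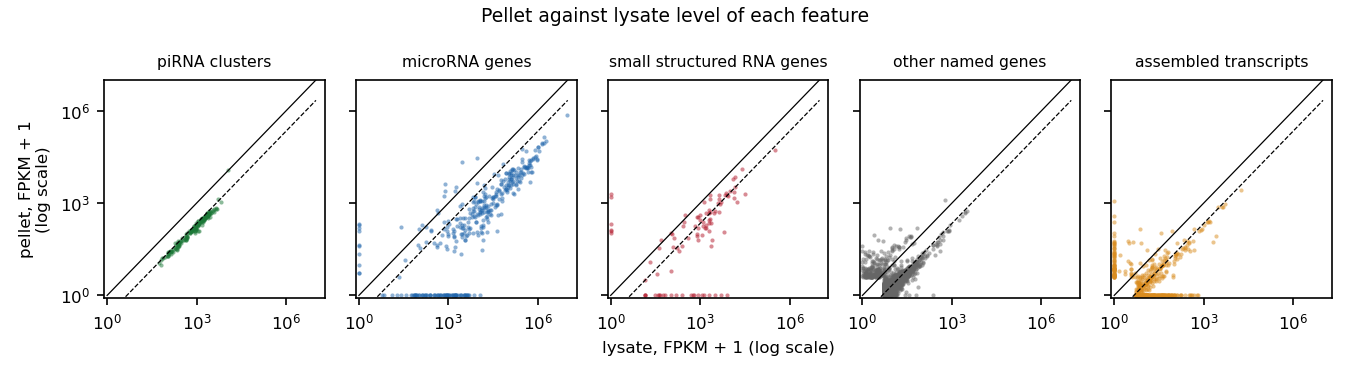
Pellet level (vertical axis) against lysate level (horizontal axis) of each feature, both as FPKM + 1 on log scales, 1 panel per class. The solid line marks equal levels and the dashed line the median ratio of all features. piRNA clusters follow the dashed line over their whole range, with 1 point on the solid line, and most microRNA genes lie below the dashed line, with 27 at least 2-fold above it.

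The piRNA clusters shared nearly one ratio. All 180 were above 0 in both columns, with a median of 159 FPKM in the pellet and 949 FPKM in the lysate, and the SD of their log2 ratios without pseudocount was 0.29, or 0.22 without piRNA_cluster_177. Of 180, 173 lay within 0.5 of the class median. For comparison, the SD was 1.74 among microRNA genes and 1.94 among other named genes. The middle of the class stayed level over the range of expression: the 45 clusters with the lowest lysate FPKM had a centred median of 0.27 without pseudocount, and the 45 with the highest 0.19. Small differences between clusters were still larger than counting error, since 106 of 180 lay more than 2 SE from the class median.

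**Figure D3:**
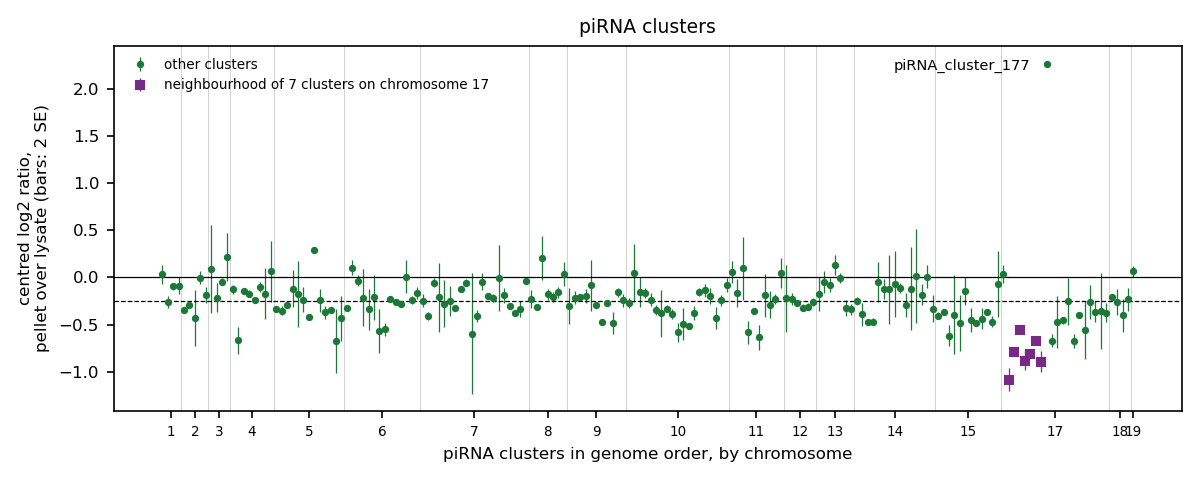
Centred log2 ratio of the 180 piRNA clusters (vertical axis) in genome order by chromosome (horizontal axis), with bars of 2 SE. The dashed line is the class median of -0.25, and squares mark 7 neighbouring clusters of chromosome 17, which lie between -1.08 and -0.56. piRNA_cluster_177 stands alone at 2.26.

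One cluster stood apart from the class. piRNA_cluster_177 (chromosome 17, 39983504 to 39984882) had 11581 FPKM in the pellet and 11080 FPKM in the lysate, the highest level of any cluster in both columns. Its centred ratio was 2.26 with an SE of 0.010, against 0.29 for the next highest, piRNA_cluster_39. It held 23.0% of the pellet FPKM sum of all clusters and 4.85% of the lysate sum. As background, that stretch of the mm9 assembly carries a copy of the ribosomal RNA repeat unit. The table does not tell fragments of ribosomal RNA from piRNAs there, and their part in this value was not tested. Mir715, listed at chromosome 17, 39981080 to 39981190, just before the cluster, did not share its ratio: it had 156 FPKM in the pellet and 2755 FPKM in the lysate, a centred ratio of -1.94 with an SE of 1.0.

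The other high cluster, piRNA_cluster_39 (chromosome 5, 115300314 to 115302629), had 1354 FPKM in the pellet and 5082 FPKM in the lysate. Its locus also holds Mir469, whose centred ratio was -0.87 with an SE of 0.11. The 2 features share an interval and differed in ratio by far more than their SEs. Among the more abundant clusters, piRNA_cluster_144 at 0.13 and piRNA_cluster_49 at 0.10 were both within 0.4 of the class median. The largest clusters by pellet level after piRNA_cluster_177 and piRNA_cluster_39 were piRNA_cluster_79, with 1114 FPKM in the pellet and 6340 FPKM in the lysate, and piRNA_cluster_107, with 677 and 4442 FPKM. Their centred ratios, -0.31 and -0.52, were on the low side of the class.

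At the low end was a group of neighbouring loci. Clusters within 100 kb of each other were joined into 77 neighbourhoods, 24 of which held 3 or more clusters. The lowest of the 24 by median was on chromosome 17, between 27428274 and 27499405. It held 7 clusters with a median of -0.81, against -0.49 for the next lowest neighbourhood and -0.10 for the highest. Within it piRNA_cluster_185 had 119 FPKM in the pellet and 1161 FPKM in the lysate, a centred ratio of -1.08 with an SE of 0.059, the only cluster at least 2-fold below the median. piRNA_cluster_187, the most abundant of the 7, had 645 and 4355 FPKM and a centred ratio of -0.56 with an SE of 0.009. piRNA_cluster_186, piRNA_cluster_188, piRNA_cluster_174, piRNA_cluster_175 and piRNA_cluster_176 lay between -0.89 and -0.67. The 7 were not alike beyond that, since piRNA_cluster_187 exceeded piRNA_cluster_185 by 0.53 with an SE of 0.06. None of the 173 clusters elsewhere was below the median of these 7, and 10 were below their highest value. This neighbourhood was found by looking at the ratios, so its place in the order is a description.

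The supernatant fraction was tabulated against the same lysate library, and the 2 tables share that lysate column up to a factor of 2.39. In the neighbourhood of 7 clusters the log2 ratio of supernatant to lysate, not centred, ran from -0.09 to 0.19, with a median of -0.07. The median of all 180 clusters was also -0.07. piRNA_cluster_177 had a supernatant to lysate ratio of 0.22 and piRNA_cluster_39 of -0.06. Both sets of ratios contain the lysate, so they are given side by side and not related to each other.

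Named genes whose listed interval overlaps that of a piRNA cluster had ratios near those of the clusters, with 1 exception. Some gene and cluster intervals are identical, as for 1700020N18Rik and piRNA_cluster_6. Whether the reads of such a gene are distinct from those of the cluster was not tested. There were 11 such overlapping genes, and 10 of them were above 0 in both columns. The 11 had a median centred ratio of -0.37. None was at least 2-fold higher, and 1 was lower, Gm10069, which was listed at 0 in the pellet with 35.7 FPKM in the lysate. Since all 11 had more than 10 FPKM in the lysate, the counts to set beside this are 31 higher and 50 lower of the 606 named genes at that level. Among the 11 were 1700020N18Rik with 554 FPKM in the pellet and 3285 FPKM in the lysate (-0.37), D130017N08Rik with 501 and 2767 FPKM (-0.27), and 1700006A11Rik with 380 and 2258 FPKM (-0.37). These 3 are among the 5 named genes with the highest pellet level. Eif2c2, which encodes the Argonaute protein AGO2, also overlaps a cluster and had 22.3 FPKM in the pellet and 97.0 FPKM in the lysate, a centred ratio of 0.12 with an SE of 0.08.

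MicroRNA genes were lower in the pellet column nearly throughout. Of 363, 341 had a lower FPKM in the pellet than in the lysate, and of the 22 that did not, 10 were listed at 0 in the lysate. Without centring this held for most of the table, 2663 of 3005 features. After centring 81.8% of microRNA genes were at least 2-fold lower, against 17.1% of all features. All but 2 of the 84 genes at 100000 FPKM or more in the lysate were at least 2-fold below the median of the table, with centred ratios from -4.59 to -0.22. All 363 microRNA genes together held 93.2% of the FPKM sum in the pellet and 98.1% in the lysate. The 10 highest microRNA genes of the 2 columns had 8 members in common.

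Mir34c, a germ cell microRNA of the miR-34 family, was the highest feature of both columns, with 719747 FPKM in the pellet and 9444380 FPKM in the lysate. Its FPKM was 13.1-fold lower in the pellet and its centred ratio was -1.52 with an SE of 0.03. That is above the class median of -2.46, and its share of all microRNA FPKM was 26.6% in the pellet and 19.6% in the lysate. The 5p sequence of miR-34c was not among the RefSeq entries used. Mir34b, which lies beside it on chromosome 9, had 93006 FPKM in the pellet and 1420120 FPKM in the lysate, a centred ratio of -1.74. Mir449a, the same seed from chromosome 13, was also at -1.74, with 67816 and 1039610 FPKM. The fourth abundant member differed: Mir34a, with 6889 FPKM in the pellet and 207715 FPKM in the lysate, was at -2.72 with an SE of 0.17. The difference between Mir34c and Mir34a was 1.20 on the log2 scale with an SE of 0.17, a 2.30-fold difference. The low members Mir449b and Mir449c, at -1.49 and -2.63, had SEs of 1.94 and 0.58.

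In the miR-15/16 family, whose members are known as regulators of the cell cycle, the order of ratios did not follow the seed. Mir15b (chromosome 3) had 143444 FPKM in the pellet and 1544630 FPKM in the lysate, a centred ratio of -1.23 with an SE of 0.08. Mir15a (chromosome 14), with 34092 and 859639 FPKM, was at -2.46, 1.23 lower with an SE of 0.13. Mir195 and Mir497, neighbours on chromosome 11, were at -1.24 and -1.30, which differed by less than their SEs. Mir322 on the X chromosome was lowest, with 2764 FPKM in the pellet and 216309 FPKM in the lysate, a centred ratio of -4.09 with an SE of 0.29. Mir15b and Mir322 thus differed 7.27-fold in their pellet to lysate ratio. Mir16-1 and Mir16-2 give the same mature miR-16 and their ratios, -1.90 and -1.89, cannot be taken as 2 measurements.

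All 12 listed let-7 genes, including Mir98, were at least 2-fold below the median, as were 81.8% of all microRNA genes. let-7 is a family of differentiation-associated microRNAs that is expressed in most somatic tissues. The median of the 12 was -3.26, against -2.46 for all microRNA genes, and they formed a higher and a lower set. In the higher set were Mirlet7d at -2.19, Mirlet7a-1 and Mirlet7a-2 both at -2.28, and Mirlet7g at -2.49. The lower set ran from Mirlet7b at -3.20 through Mirlet7i at -3.22, Mirlet7e at -3.30, Mirlet7f-1 at -3.41 and Mirlet7f-2 at -3.45 to Mirlet7c-1 at -3.71 and Mirlet7c-2 at -3.72. Mir98, at -3.85, had an SE of 1.45 and cannot be placed. Mirlet7a-1 had 15890 FPKM in the pellet and 353224 FPKM in the lysate, while Mirlet7c-2 had 9947 and 601741 FPKM. The ratio of let-7a was 2.72-fold that of let-7c, a difference of 1.44 on the log2 scale with an SE of 0.20.

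The sequences of let-7a and let-7c differ by 1 substitution outside the seed, counted from the 5′ end of let-7a: A19G. let-7b carries A17G and A19G. Its ratio exceeded that of let-7c by 0.53 with an SE of 0.22. let-7f differs from let-7a only by G12A, and Mirlet7a-1 exceeded Mirlet7f-2 by 1.17 with an SE of 0.30. let-7g carries G12U and U18C, and its ratio exceeded that of let-7i, which carries G12U, A17G, U18C and A19U, by 0.73 with an SE of 0.25. Reads that match several of these near-identical copies may have been divided among them, so the values of single let-7 genes are uncertain by more than the SE. The supernatant to lysate log2 ratios, not centred, were 0.57 for Mirlet7a-1, 0.82 for Mirlet7f-1 and 0.05 for Mirlet7c-2.

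**Figure D4:**
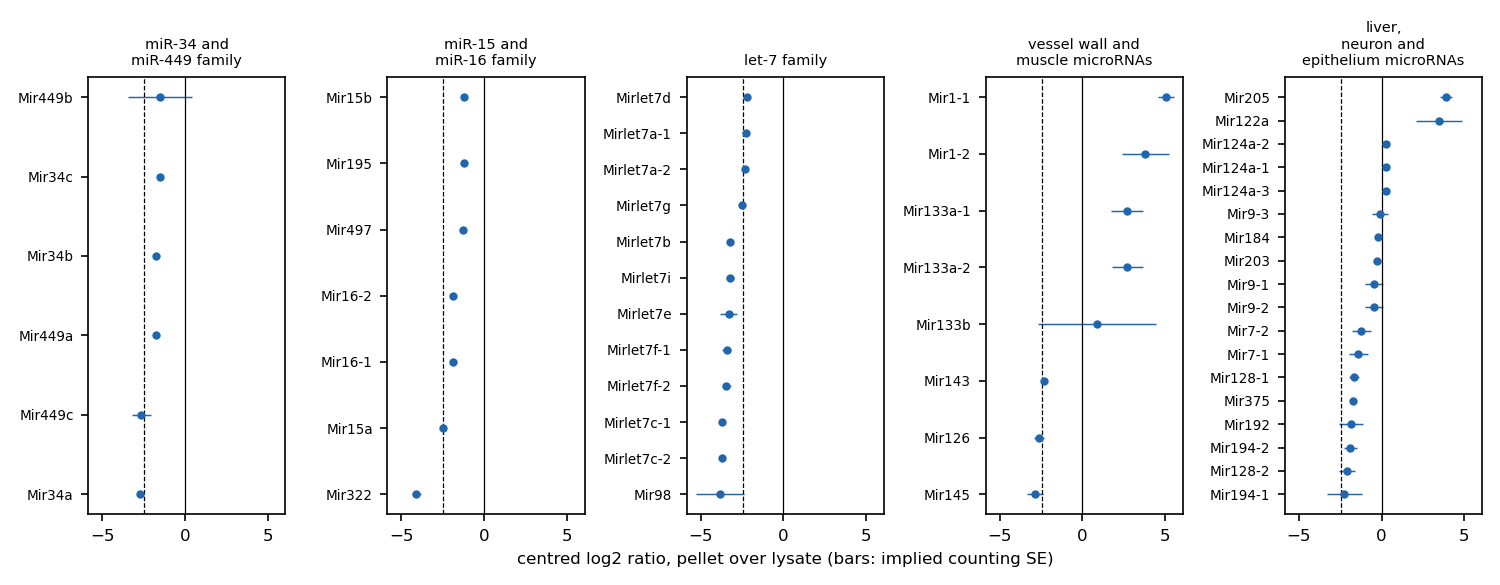
Centred log2 ratio (horizontal axis) of every listed member of 5 microRNA lists (rows), with bars of 1 SE. The solid line marks the median of all features and the dashed line the microRNA median of -2.46. Most members lie left of the solid line, the let-7 genes between -3.85 and -2.19, while Mir1-1, Mir1-2, both Mir133a genes, Mir205 and Mir122a lie right of it, above 2.7.

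Other germ cell and housekeeping families gave medians near that of all microRNA genes. Of all microRNA genes 81.8% were at least 2-fold lower, so the counts of lower members do not set these families apart. The 19 listed genes of the X-linked testis cluster, a rapidly evolving group expressed in germ cells, were all at least 2-fold lower, with a median of -2.51. They ran from Mir547 at -4.03 with an SE of 0.47 to Mir742 at -1.31 with an SE of 0.31. Mir741, the most abundant of them, had 49704 FPKM in the pellet and 1091190 FPKM in the lysate, at -2.26. In the miR-17-92 group and its paralogs 11 of 14 were at least 2-fold lower, with a median of -2.40. A pair of neighbours in that cluster, Mir18 and Mir19a on chromosome 14, stood apart at -1.26 and -3.31, with SEs of 0.10 and 0.30.

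MicroRNAs known from other cells of the testis were lower too, as were 81.8% of all microRNA genes. The 3 listed for gonadal somatic cells had a median of -3.02. Mir202, one of the 3, had 4813 FPKM in the pellet and 531875 FPKM in the lysate, 110-fold less. Its centred ratio of -4.59, with an SE of 0.34, was the lowest of the 84 abundant genes. All 4 blood microRNAs listed were at least 2-fold lower, with a median of -3.79. Mir451, the red cell microRNA, had 24386 FPKM in the pellet and 919334 FPKM in the lysate, at -3.04 with an SE of 0.15. Lower values were those of Mir101a at -6.23, Mir148a at -5.68, Mir350 at -6.59, Mir193 at -5.25 and Mir144 at -4.84. Their SEs were between 1.31 and 4.69, and pellet levels of 30 to 440 FPKM make their order uncertain.

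A few microRNAs exceeded their lysate FPKM in the pellet, among them Mir1-1 and Mir205. Mir1-1, which encodes the muscle microRNA miR-1, had 21192 FPKM in the pellet and 2953 FPKM in the lysate, 7.18-fold more, a centred ratio of 5.04 with an SE of 0.49. Mir205, an epithelial microRNA, had 30155 and 9099 FPKM, 3.31-fold more, at 3.92 with an SE of 0.36. In rank among microRNA genes Mir205 moved from 187 in the lysate to 15 in the pellet and Mir1-1 from 236 to 25. The supernatant to lysate log2 ratios, not centred, were -0.64 for Mir1-1 and -1.93 for Mir205.

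Of the 8 listed vessel wall and muscle microRNAs 4 were at least 2-fold higher and 3 lower, against 7.44% and 81.8% of all microRNA genes. With Mir1-1 the higher ones were Mir1-2 at 3.80, with an SE of 1.42, and Mir133a-1 and Mir133a-2, both at 2.71. The Mir133a genes both give miR-133a and had SEs of 0.98 and 0.93, so the 4 higher genes are not 4 separate measurements. The vessel microRNAs of the list went the other way, with Mir126 at -2.61, Mir143 at -2.32 and Mir145 at -2.86. The remaining listed member, Mir133b, was past 2-fold in neither direction. No mRNA marker of blood, vessels or peritubular cells was listed beside these microRNAs. Of the 18 listed microRNAs of liver, neuron and epithelium, 2 were past 2-fold on the high side, Mir205 and Mir122a, and 8 on the low side, with a median of -0.44. The miR-200 family, which is known from epithelium, had 4 of 5 genes on the low side and none on the high side, with a median of -2.23. The liver microRNA gene Mir122a was at 3.47, with 1727 FPKM in the pellet, 715 FPKM in the lysate and an SE of 1.39. Whether these microRNAs reached the pellet column from cells of other tissues was not tested.

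Between these extremes were microRNAs that kept the place of a typical feature. Mir184 had 56220 FPKM in the pellet and 300920 FPKM in the lysate, a centred ratio of -0.22 with an SE of 0.12, the highest of the 84 abundant genes. It was ranked 9 among microRNA genes in the pellet and 41 in the lysate. Mir203 was at -0.26 with an SE of 0.27. Mir124a-1, Mir124a-2 and Mir124a-3, the genes of a neuronal microRNA, were all at 0.25 with an SE of 0.23 and give the same mature sequence, so they are not separate measurements. Mir375, with 67120 FPKM in the pellet and 1027620 FPKM in the lysate, stayed with the bulk of the class at -1.74. The ratios of Mir184 and Mir202 differed 20.6-fold, 4.37 on the log2 scale with an SE of 0.37.

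Features at 0 in a column are described without a fold. In the pellet 74 microRNA genes were listed at 0, and 22 of them belong to the 36 listed genes of the Meg3 to Mirg locus, an imprinted microRNA cluster of chromosome 12. Mir411 of that locus was the highest of those at 0, with 11091 FPKM in the lysate. Among the 10 microRNA genes at 0 in the lysate, Mir3064 was highest, with 210 FPKM in the pellet.

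Small structured RNA genes varied widely within each kind. Small nucleolar RNAs of the C/D box type guide methylation of ribosomal RNA, and those of the H/ACA type guide pseudouridylation. Of all features 14.6% were past 2-fold on the high side and 17.1% on the low side. The 58 C/D box genes had a median of -0.20 (quartiles -1.37 and 0.46). Of these 10 were past 2-fold on the high side and 19 on the low side, 17.2% and 32.8%. The 23 H/ACA genes had a median of -0.49 (quartiles -3.24 and 1.41), with 8 and 9, 34.8% and 39.1%. The 2 kinds thus overlapped broadly. Of 5 Cajal body RNA genes 2 were past 2-fold on the high side and 3 on the low side, with a median of -2.69. By the measure without pseudocount the medians of the C/D box and H/ACA genes were positive, 0.51 and 1.24, and that of the Cajal body genes was -0.39. This measure leaves out genes listed at 0. Those were 11 C/D box and 8 H/ACA genes at 0 in the pellet, against 2 and 1 at 0 in the lysate. It thus drops more low ratios than high ones. The 5 genes with the prefix Rnu were grouped by name alone and are not all spliceosomal. Their median was -1.86, and 4 of 5 were past 2-fold on the low side. Of these 4, Rnu73b was listed at 0 in the pellet, with 3116 FPKM in the lysate.

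Snord2 dominated the class, with 53600 FPKM in the pellet and 319479 FPKM in the lysate, a centred ratio of -0.38 with an SE of 0.13. Another 3 of the 5 highest in the pellet were above the median. Snord37 had 12835 FPKM in the pellet and 24470 FPKM in the lysate, at 1.27 with an SE of 0.46. Snord69 had 6985 and 14294 FPKM, at 1.16 with an SE of 0.52, and Snord95 had 6279 and 12674 FPKM, at 1.18 with an SE of 0.43. Even these had less FPKM in the pellet than in the lysate. Snord66 was at 0.00 with an SE of 0.71. Higher ratios, from 1.57 to 2.06 in Snord4a, Snord90 and Snord57, came with SEs of 0.98 to 1.24.

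Rnu12 and Rnu11, the U12 and U11 RNAs of the minor spliceosome, had nearly the same ratio. Rnu12 had 1928 FPKM in the pellet and 32231 FPKM in the lysate, at -1.87 with an SE of 0.17. Rnu11 had 1060 and 17672 FPKM, at -1.86 with an SE of 0.40. Snord37 exceeded Rnu12 by 3.13 on the log2 scale with an SE of 0.49. Scarna3a and Snord12, at -3.69 and -3.58, had SEs of 2.02 and 4.71 and cannot be ordered. Snord45b and AF357359 were listed at 0 in the lysate, with 2021 and 1600 FPKM in the pellet, and Snord68 at 0 in the pellet, with 7938 FPKM in the lysate. Many of these RNAs lie within introns of host genes, and the intervals the table gives are those of the hosts.

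Other named genes, whose reads here are small fragments of 19 to 33 nt, formed a main group at the median and an upper group at higher ratios. Of 1893, 1572 had a centred ratio between -1 and 1. Above that, 40 lay between 1 and 2, 53 between 2 and 3, 98 between 3 and 4, 48 between 4 and 5, and 24 at 5 or more. The 98 genes between 3 and 4 had a median of 1.80 FPKM in the lysate and 5.57 FPKM in the pellet and came from 20 chromosomes. For most of them the lysate value was under the 2.86 FPKM at which rows begin, and their presence in the table rested on the pellet value. Of the 98, 15 had 10 FPKM or more in the lysate. Over the whole class 147 genes had a lysate value under 2.86 FPKM, and all 147 were at least 2-fold above the median. Such a row cannot be lower in the pellet than in the lysate. The gap between the 2 groups therefore depends in part on how rows were listed.

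The best measured members of the upper group had an SE of at most 0.25 and are described as a set chosen after their values were seen. They were 37 of 167 named genes with such an SE. That share is set in part by the limit, since a gene low in the lysate passes it more readily when its pellet value is high. At 10 FPKM or more in the lysate, without a limit on the SE, 31 of 606 named genes were higher and 50 lower. The pellet levels of the 37 ran from 4.27 to 1287 FPKM with a median of 30.8, and their lysate median was 10.3 FPKM. In 32 of the 37 the pellet FPKM was above the lysate FPKM, without any centring. They lay on 17 chromosomes.

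Lars2, which encodes the mitochondrial leucyl-tRNA synthetase, was the highest named gene in the pellet (chromosome 9, 123276057 to 123371782). It had 1287 FPKM in the pellet and 604 FPKM in the lysate, 2.13-fold more, a centred ratio of 3.29 with an SE of 0.02. As background, the Lars2 locus is known to contain a stretch similar to large-subunit ribosomal RNA, and the part of such reads in this value was not tested. In the supernatant it had 277 FPKM against 252 FPKM in the lysate of that table, a log2 ratio of 0.13.

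Smc6, a subunit of the SMC5/6 genome stability complex, had 82.1 FPKM in the pellet and 34.4 FPKM in the lysate, at 3.42 with an SE of 0.08. Blm, the RecQ helicase of recombination, had 35.4 and 15.5 FPKM, at 3.34 with an SE of 0.13. Pde3b, a cyclic nucleotide phosphodiesterase, had 36.8 and 15.6 FPKM, at 3.38 with an SE of 0.12. The ratios of these 3 genes were nearly the same. Their supernatant to lysate log2 ratios, not centred, were -0.95, -1.08 and -0.88.

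Kit, the receptor of stem cell factor and the only listed member of 15 spermatogonia markers, had 18.2 FPKM in the pellet and 5.27 FPKM in the lysate. Its centred ratio was 3.81 with an SE of 0.20, and its supernatant to lysate log2 ratio was -1.11 with an SE of 0.33. Hrc, a calcium-binding protein of the sarcoplasmic reticulum, had 71.8 and 27.6 FPKM, at 3.54. Nox3, an NADPH oxidase, had 86.2 and 42.2 FPKM, at 3.21. Cacna1d, a calcium channel subunit, had 29.1 and 9.13 FPKM, at 3.77. Cbln3 had the highest centred ratio of the 37, 4.35 with an SE of 0.22, and Smcr8 the lowest, 1.63 with an SE of 0.12. Naa15, the auxiliary subunit of an N-terminal acetyltransferase, belonged to the few with less FPKM in the pellet, 48.2 against 54.5, at 2.02 with an SE of 0.07.

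**Figure D5:**
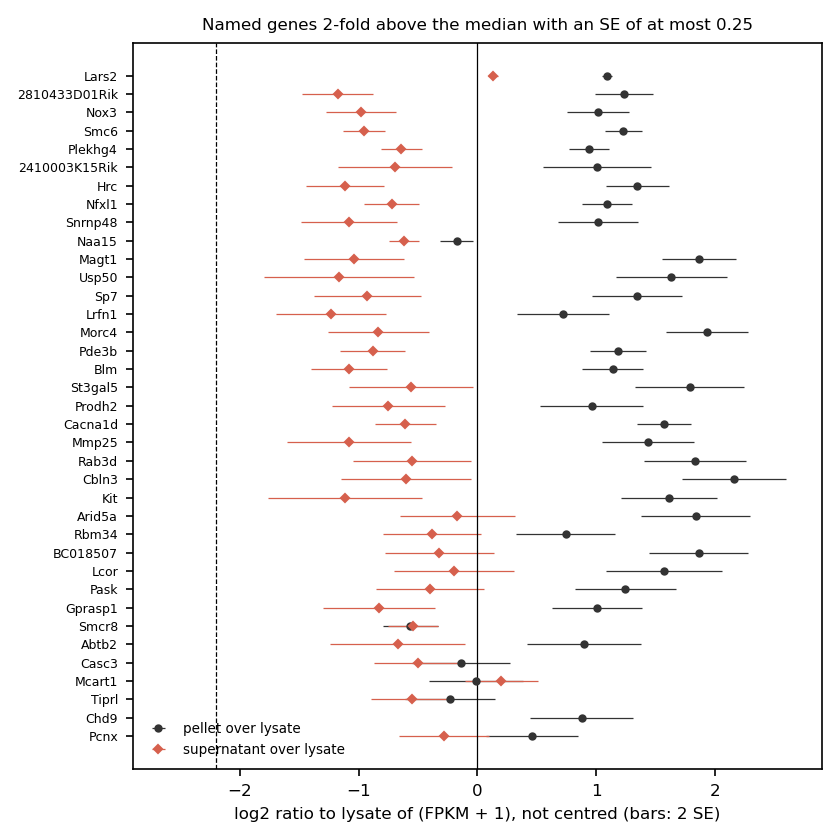
log2 ratio to lysate of (FPKM + 1), not centred (horizontal axis), for the 37 named genes at least 2-fold above the median with an SE of at most 0.25, ordered by pellet level (rows). Circles are pellet over lysate, diamonds supernatant over lysate, bars 2 SE, and the dashed line the median pellet to lysate ratio of all features, -2.20. The 2 ratios of a gene share the lysate library. All circles lie right of the dashed line, and 32 lie right of 0.

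Some of the largest ratios among named genes rested on very low lysate values. Msto1, a gene of mitochondrial distribution, had a small SE and a lysate value above the class median of 6.90 FPKM, with 151 FPKM in the pellet and 7.66 FPKM in the lysate, 19.8-fold more, at 6.33 with an SE of 0.27. Rhbdf2, which encodes the inactive rhomboid iRhom2, had 61.5 and 2.20 FPKM, at 6.48 with an SE of 0.35. For 1810065E05Rik, Aldh1l1 and Npcd, at 7.48, 6.60 and 6.34, the lysate level was 1.38 FPKM or less and SEs were 0.93 to 1.23. Gm12238 was listed at 0 in the lysate, with 38.1 FPKM in the pellet. Bc1, a small cytoplasmic RNA known from neurons and germ cells, had 141 FPKM in the pellet and 17.3 FPKM in the lysate, at 5.15, but with an SE of 1.81; it was named after its value was seen.

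Genes of the chromatoid body and piRNA pathway stayed with the main group. Of 34, 13 were listed, 1 was at least 2-fold higher and none lower, and their median was 0.25, against 0.18 for all other named genes. In that class 13.9% were higher and 3.06% lower, so the counts do not set the list apart. Piwil1, which encodes MIWI, had 2.01 FPKM in the pellet and 14 FPKM in the lysate, at -0.12 with an SE of 0.31. Piwil2, the PIWI protein MILI, was at 0.25, Ddx4 at 0.32, and Ddx25, a testis helicase, at -0.27. The higher one was Eif2c4, the Argonaute gene AGO4, with 3.0 FPKM in the pellet and 2.61 FPKM in the lysate, at 2.35 with an SE of 0.29. Its lysate value is under 2.86 FPKM, so it stood in the table through its pellet value, and all 253 such rows were higher.

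At 10 FPKM or more in the lysate, 50 of 606 named genes were at least 2-fold lower. Of the 5 protamine and transition protein genes, 2 were. These were Prm1 and Prm2, which encode the protamines that package sperm DNA. They had 26.6 and 20.2 FPKM in the pellet and 398 and 274 FPKM in the lysate. Their centred ratios were -1.65 and -1.50, with SEs of 0.35 and 0.28. The transition proteins that precede them on DNA were less far down, with Tnp1 at -0.63 and Tnp2 at -0.61. Prm1 was below Tnp1 by 1.03 with an SE of 0.47, and Prm2 below Tnp2 by 0.89 with an SE of 0.43, each about 2 SE. Prm3, at -0.84, had an SE of 1.65.

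Genes of the sperm tail and late spermatids, and those of spermatocytes, stayed in the main group with 1 exception. Of 19 listed genes of the tail and late spermatids none was at least 2-fold lower and 1 was higher, Tssk2 at 1.13 with an SE of 0.56, and the median was -0.09. Smcp, of the mitochondrial capsule, was at 0.05, while Odf2 and Odf1, of the outer dense fibers, were at -0.78 and -0.53. Of 11 spermatocyte genes none was past 2-fold, with Ldhc at -0.35, Hspa2 at 0.04 and a median of 0.00. All 6 listed acrosome genes were within 2-fold as well, with a median of -0.34. Of all 1893 other named genes 1572 lay between -1 and 1, so staying within 2-fold does not set these lists apart.

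Of 67 ribosomal protein genes 13 were at least 2-fold lower, 19.4%, and 2 were higher, 2.99%. In their own class, other named genes, 3.06% were lower and 13.9% higher. Of all features, microRNA genes included, 17.1% were lower. The median of the 67 was -0.21, and 8 of them were listed at 0 in the pellet. Rps20, with 2.38 FPKM in the pellet and 55.9 FPKM in the lysate, was at -1.88 with an SE of 0.94, and Rps28 was listed at 0 in the pellet, with 60.2 FPKM in the lysate. The most abundant of them, Rps15, had 116 and 492 FPKM and was at 0.12 with an SE of 0.15. Among the 39 replication-dependent histone genes 2 exceeded 2-fold upwards and 4 downwards, 5.13% and 10.3%. The shares of all other named genes were 13.9% and 3.06%. Of the histone genes, Hist1h1t, the testis-specific linker histone, was at 1.14 with an SE of 0.40, and Hist1h2ba, a testis H2B, at -0.45 with an SE of 0.30.

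Somatic and nuclear RNAs gave few values. Insl3, a Leydig cell hormone, had 1.55 FPKM in the pellet and 32.5 FPKM in the lysate, at -1.52 with an SE of 1.22, and Clu, a Sertoli cell marker, was at 0.63 with an SE of 0.69. Of 7 listed nuclear and long non-coding RNAs, Malat1 was at -0.18, Neat1 at 0.71 and Kcnq1ot1 at 0.53, all under 2-fold. Meg3, the host of the imprinted microRNA locus on chromosome 12, was at 2.83 with an SE of 0.63, from 3.17 FPKM in the pellet and 1.69 FPKM in the lysate. Its lysate value is under 2.86 FPKM, so it was listed through its pellet value, and all 253 such rows were higher. The lowest named genes above 0 in both columns included 1700020L24Rik, with 0.89 FPKM in the pellet and 71.0 FPKM in the lysate, at -3.06. LOC100302567 was listed at 0 in the pellet, with 230 FPKM in the lysate.

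Assembled transcripts lay far apart in ratio. At 0 in the pellet were 166 of 472, and at 0 in the lysate 76. At 10 FPKM or more in the lysate, 83 of all 1467 features were past 2-fold on the high side and 492 on the low side. Of the 239 assembled transcripts at that level the counts were 18 and 108, with a median of -0.71. The highest in the pellet, on chromosome 2 between 151077379 and 151077787, had 2616 FPKM in the pellet and 17532 FPKM in the lysate, at -0.55 with an SE of 0.17. Farther along that chromosome, the transcripts from 151146633 to 151150064 and from 151235818 to 151239124 were at -0.26 and -0.25. These transcripts were near the median of their own class, -0.23, as well as that of the piRNA clusters, -0.25. Between the highest one and these, the one from 151082881 to 151084496 was at -2.73 with an SE of 2.38, and a transcript elsewhere on the chromosome (11838734 to 11840632) was at -2.98 with an SE of 1.73. A transcript on chromosome 4 (61898999 to 61900233) was at 0.14. One on chromosome 8 (73491314 to 73491842) was listed at 0 in the lysate, with 1179 FPKM in the pellet. On the X chromosome, those from 33341196 to 33342026 and from 23534898 to 23536009 were at 6.54 and 6.20, each with an SE of 0.99. A transcript of the mitochondrial genome, from 10775 to 16161, was picked after its value was seen. It had 3.17 FPKM in the pellet and 45.3 FPKM in the lysate, at -1.28 with an SE of 0.22.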

How the data were processed

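The authors made the small RNA tables. TopHat and Cuffdiff are credited to them by the submitters' processing notes, which give mm9 as the build and no versions. The deposited pellet and supernatant tables hold FPKM per feature, taken as the unit from the notes and the column names, and the authors' test statistic, a score with no fixed range. The sources used here do not state how reads with several matches were handled. Loci are printed as the table gives them. Raw counts and depth are unknown. Another 3 tables of the series were not used, and 1 column of long RNA values in one of them belongs to no sample here.

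Computed here, with Python 3.11.15, numpy 2.4.6 and pandas 2.3.3, were log2 ratios with a pseudocount of 1 FPKM, centred on the median of all rows, counts past 2-fold, and SEs from the test statistic for rows above 0 in both columns. The ratio script was checked on simulated data. Features were named by level and ratio within each class (the 5 highest pellet levels, and the 5 highest and 5 lowest ratios among the upper part by level), by listing at 0 (the 3 highest), and from lists of genes. The members and lists were chosen with earlier results of these data known. Some members of lists and neighbours of named features (such as Mir469, Mir715, Rps15 and Hist1h1t) were named after their values were seen. Some features are not reported here.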

Additional observations from a re-analysis of the deposited data

How the results depend on the processing

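The counts and class medians depend on the centre and on the low values. Medians below are for piRNA clusters, microRNA genes, small structured RNA genes, other named genes and assembled transcripts, in that order, and were -0.25, -2.46, -0.38, 0.18, -0.23 as reported. A pseudocount of 0.1 FPKM gave 0.25, -1.98, 0.10, 0.063, -0.13 with 500 features higher and 705 lower. Only rows above 0 in both columns, with no pseudocount, gave 0.25, -1.68, 0.42, -0.014, 0.24. Rows at or above 10 FPKM in either column gave 0.12, -2.12, -0.01, 0.20, -0.10, with 212 higher. Loci of at least 200 bp, which hold 165 microRNA genes, gave -0.30, -2.59, -0.43, 0.13, -0.27. The listed interval can be far longer than the microRNA, as with 132137 bp for Mir98. For microRNA genes this setting therefore does not select by the length of the RNA. No row lay under 1 FPKM, so dropping that filter changed nothing. Without centring the medians were -2.44, -4.65, -2.58, -2.01, -2.43, with 263 higher and 2599 lower. Centring on the log2 ratio of the column sums of FPKM times locus length, which lies 2.05 below the median, gave 1.80, -0.41, 1.67, 2.23, 1.82, with 2510 higher and 189 lower. The length is that of the listed interval, 84148 bp for Mir16-1 and 77 bp for Mir34c. Abundant microRNA genes with long intervals therefore weigh heavily in this centre, and it is not a measure of the total RNA of a column. MicroRNA genes had the lowest median of the classes under each of these settings. Where only the centre was moved or left out, or the filter dropped, the order of the classes could not change. Those settings are no check of it. Added after seeing the data were features with an SE of at most 0.25, of which 3 are structured RNA genes, which gave -0.0021, -2.01, -1.31, 0.27, -0.10 with 39 higher and 59 lower around their own median, and rows at or above 10 FPKM in the lysate, which gave -0.25, -2.49, -0.49, -0.22, -0.71 with 83 higher. The moves of the centre follow from how each setting is built.

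Some named features past 2-fold changed sign when the centre was moved. Without centring these were Hist1h1t -1.06, Mir2137 -0.93, Naa15 -0.17, Smcr8 -0.57, Snord37 -0.93, Snord4a -0.63, Snord57 -0.14, Snord69 -1.03, Snord90 -0.24, Snord95 -1.01 and Tssk2 -1.06. With the centre on the column sums they were the transcript of the mitochondrial genome 0.77, Insl3 0.53, Mir15b 0.82, Mir16-1 0.15, Mir16-2 0.16, Mir18 0.79, Mir191 0.13, Mir195 0.81, Mir34b 0.31, Mir34c 0.53, Mir375 0.31, Mir449a 0.31, Mir449b 0.56, Mir497 0.75, Mir715 0.11, Mir742 0.74, Prm1 0.40, Prm2 0.55, Rnu11 0.19, Rnu12 0.18, Rps20 0.17, Tubb2c 0.93 and piRNA_cluster_185 0.97. The changes of sign with the column sums carry the limit of that centre given above. No other setting turned a feature named here that was past 2-fold. No paired analysis was possible because each group has 1 column of values and no test was made.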
